A study of Mus musculus with 2 samples.

Results

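Conventional type 1 dendritic cells (cDC1) were sought among the single cells of 2 mouse colon tumour libraries by their transcripts. A barcode, which stands for 1 droplet and usually 1 cell, was taken when it held at least 2 unique molecular identifiers (UMIs, single counted transcripts) of Xcr1 and Clec9a together, under 20% mitochondrial UMIs, at most 1 UMI of the tumour transcript Hmga2, and no UMI of Cd3d, Cd3e, Cd3g or Siglech. This gave 93 members of 26063 barcodes, 75 in the SLC7A11 antibody library and 18 in the control library. The tumours were grown from CT26, an established colon carcinoma line, and the labels give each library the tissue colon cancer but also the cell type goblet cells, which does not describe the mixture of tumour and host cells in the tables. Mice of the antibody library received a monoclonal antibody to SLC7A11, the light chain of the transporter that exchanges cystine for glutamate, and mice of the control library received anti-IgG. Both were dosed at 10 mg/kg, 1 dose each 2 days, once tumours measured 50 to 100 mm³. The design text places the injection at the caecal junction and also mentions subcutaneous growth, and the strain, the ages and the number of mice behind each library are not given in the sources used here.

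Type 1 conventional dendritic cells take up material from dying cells and present its peptides on MHC class I to CD8 T cells, which is called cross-presentation. XCR1 is the receptor for XCL1, a chemokine released by NK cells and CD8 T cells, and CLEC9A binds actin exposed by dead cells. The lineage depends on the transcription factors IRF8 and BATF3 and on the growth factor receptor FLT3. In tumours these cells are known as a source of interleukin 12 and of CXCL9, which attracts T cells.

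The antibody library held 12153 barcodes with 143658800 UMIs and the control library 13910 barcodes with 129044329 UMIs. The libraries shared 39 barcode sequences, of which 0 were members. The libraries differed in many transcripts over all cells: Junb stood at 1373 CPM (counts scaled to 1000000 UMIs of the set) in the antibody library and 35.6 CPM in the control library, Cox5a at 582 and 12.2 CPM, and Actb at 5648 and 5709 CPM. With 1 library per group no difference between the libraries has a replicate check, no test across samples could be made and no p-value is given. The intervals given are 95% exact binomial intervals, and they cover counting error only.

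The members were not 1 kind of cell. The complement genes C1qa, C1qb and C1qc, which macrophages transcribe at high levels, divided them at the limit of 2000 CPM that also defined the C1q macrophages used for comparison. In the antibody library 32 members lay below this limit and 43 above it, with 1761 CPM the highest value below and 5732 CPM the lowest above. In the control library 16 members lay below it, all with 0 C1q UMIs, and 2 above it, at 4683 and 35916 CPM. The C1q-high members made up 57.3% of the members in the antibody library (95% interval 45.4 to 68.7) and 11.1% in the control library (1.38 to 34.7). The split was made after the values had been seen, so C1q itself is a description.

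The genes that the rule did not use set the C1q-low members apart as dendritic. At least 1 UMI of Flt3, Zbtb46 (a transcription factor of conventional dendritic cells), Itgae (CD103, an integrin of cDC1) or Cd24a was found in 29 of the 32 C1q-low members of the antibody library and in 15 of the 16 of the control library. None of the 43 C1q-high members of the antibody library had 1. The opposite held for the macrophage genes Csf1r, Apoe and Mrc1, seen in 42 of 43 C1q-high members, against 7 of 32 C1q-low members of the antibody library and 0 of 16 of the control library. Of the 2 control C1q-high members, 1 had dendritic transcripts and both had macrophage transcripts. Flt3, Zbtb46, Itgae and Cd24a come from an identity list of 23 genes, which also holds Xcr1 and Clec9a. In the antibody C1q-high members 15 of its genes could be measured, with a median log2 ratio over macrophages of 0.52. Of these, 4 were 2-fold higher and 1 lower, against 3.01% and 14.8% of all genes. Xcr1 and Clec9a are among the higher ones: Xcr1 was at 0 in the macrophages by definition, and Clec9a (log2 ratio 3.56) was selected by the rule. The count and the median therefore partly reflect the rules. By the 4 dendritic genes, the label held for most C1q-low members and not for the antibody C1q-high ones. The C1q-low member at 1761 CPM of C1q had 0 UMIs of them and of Wdfy4. The C1q-high members are called here by the rule.

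**Figure D1:**
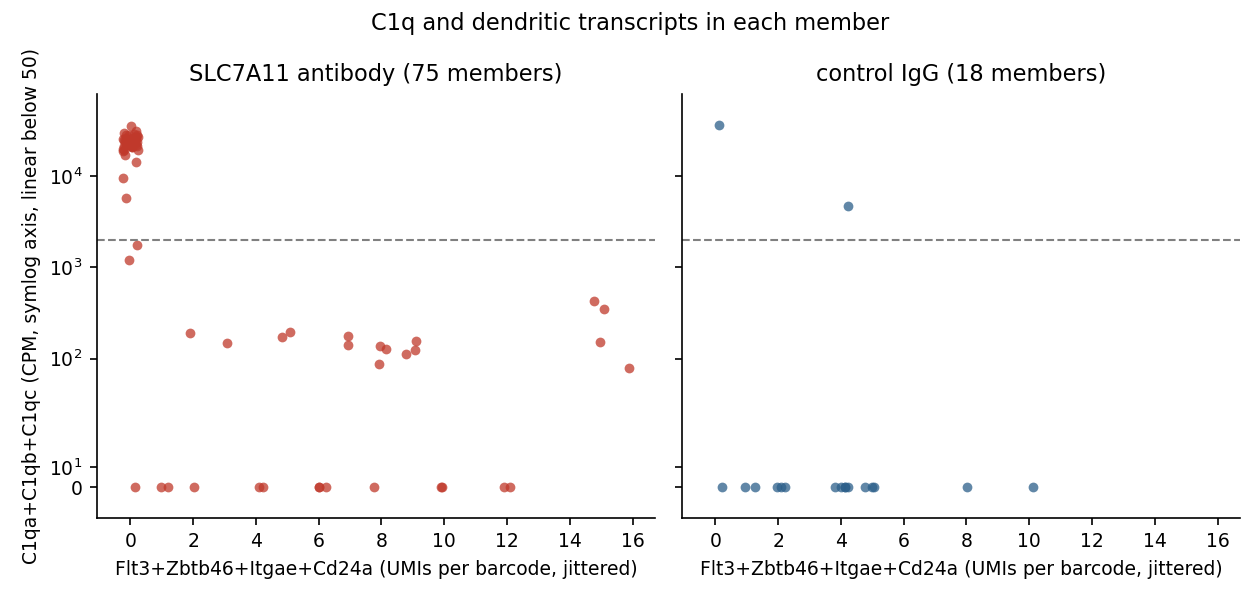
Each point is 1 member, with the summed UMIs of Flt3, Zbtb46, Itgae and Cd24a on the x axis and the summed C1q level in CPM on the y axis (logarithmic above 50), in the antibody library on the left and the control library on the right. The dashed line is the limit of 2000 CPM: all 43 antibody members above it sit at 0 dendritic UMIs, while 29 of the 32 below it have at least 1.

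Single markers followed this split unevenly. Wdfy4, which is needed for cross-presentation by cDC1, stood at 987 CPM in the C1q-low members of the antibody library and 797 CPM in those of the control library. It stood at 21.4 CPM in the C1q-high members, at 36.7 CPM in the C1q macrophages of the antibody library and at 50.7 CPM in those of the control library. Irf8 stood at 3825 and 1432 CPM in the antibody and control C1q-low members, at 593 CPM in the C1q-high members, and at 460 and 189 CPM in the antibody and control macrophages. Flt3 stood at 112 CPM in the antibody C1q-low members and 162 CPM in the control ones, and 0 UMIs were counted in the C1q-high members. Batf3 stood at 129 and 118 CPM in the antibody and control C1q-low members and at 61.7 CPM in the C1q-high ones. In the antibody and control macrophages it stood at 24.5 and 2.28 CPM. The log2 ratio of the C1q-high members over the antibody macrophages was 1.33 (0.67 to 1.95). Cadm1, an adhesion molecule of cDC1, did not separate the sets, with 543 and 192 CPM in the antibody and control C1q-low members, 484 CPM in the C1q-high members and 339 CPM in the antibody macrophages.

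Most markers of other cells were scarce in the C1q-low members. The 11 macrophage markers summed to 187 CPM in the antibody library and 59.0 CPM in the control library, against 25848 and 25622 CPM in the antibody and control macrophages. C1qa, C1qb and C1qc are among them and define both sets, so much of this contrast was fixed by the split. They stood at 7825, 4104 and 6243 CPM in the antibody macrophages and at 10784, 5631 and 3066 CPM in the control ones. Pf4, which the split did not use, was at 0 in both sets of C1q-low members. The 8 neutrophil markers summed to 249 CPM in the antibody C1q-low members and 0 in the control ones, and all 7 B cell markers were at 0 in both. The 10 T cell markers summed to 41.5 CPM and 0, with Cd3d, Cd3e and Cd3g among them at 0 by the rule. The 8 monocyte markers summed to 875 CPM in the antibody C1q-low members and 2820 CPM in the control ones, but Plac8 alone gave 792 and 2598 CPM of these sums, and Fcnb, Vcan, Chil3 and Hp were at 0 in both sets. The 8 markers of plasmacytoid dendritic cells summed to 643 and 1196 CPM, of which Bst2 gave 597 and 1122 CPM. Cox6a2, Klk1, Cd300c and Spib were at 0 in both sets, and Siglech was at 0 by the rule. The 8 markers of type 2 conventional dendritic cells summed to 295 and 29.5 CPM in the antibody and control C1q-low members, against 957 and 1050 CPM in the macrophages. The 8 markers of mature dendritic cells summed to 523 and 192 CPM in these members, and the 8 NK cell markers to 124 and 221 CPM. Neither library was corrected for free RNA or doublets, and the part of either in these values was not tested.

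**Figure D2:**
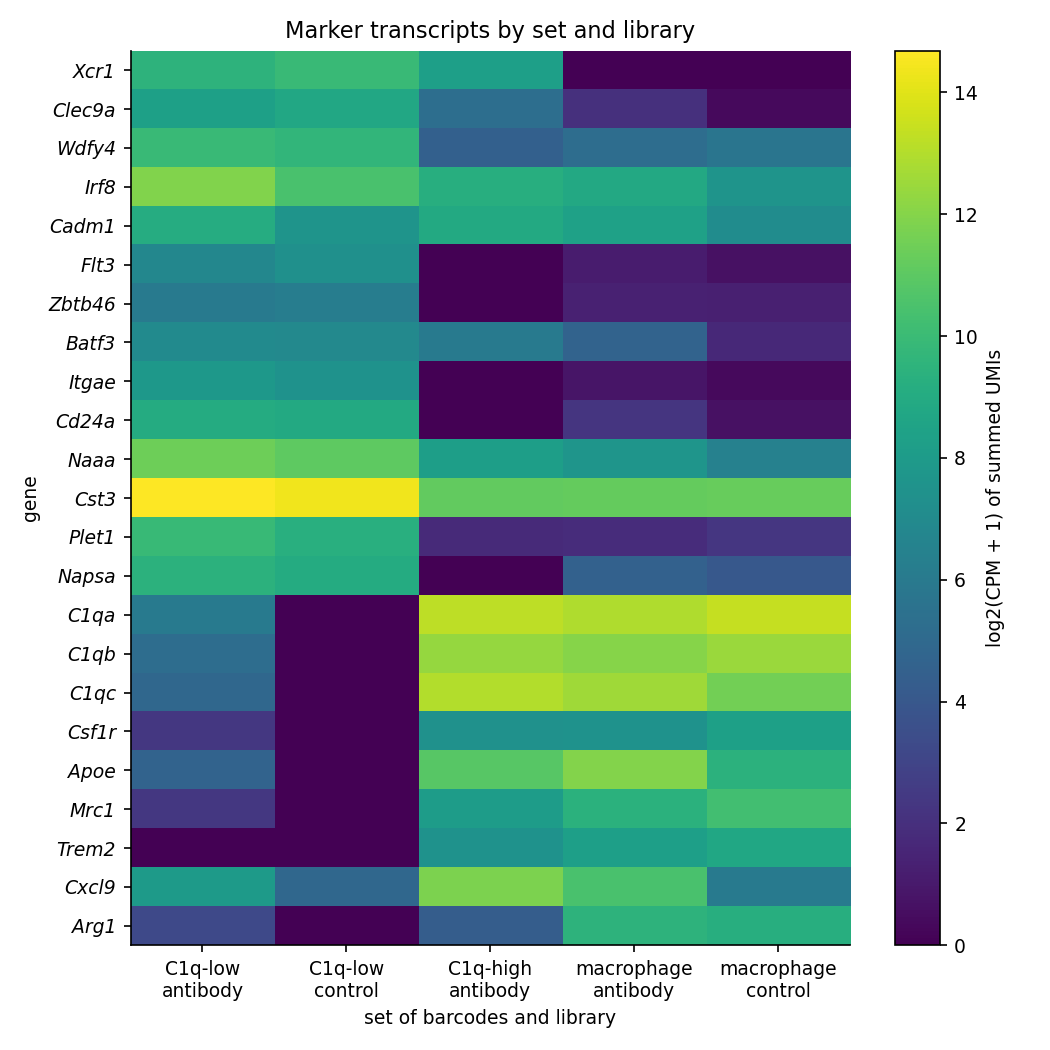
Colour gives log2(CPM + 1) of the summed UMIs for each gene (rows) in each set of barcodes (columns). The C1q-low members of both libraries hold Wdfy4, Flt3, Zbtb46, Itgae, Cd24a, Plet1 and Napsa, while the C1q-high members have 0 UMIs of Flt3, Zbtb46, Itgae and Cd24a and share C1q, Csf1r and Apoe with the macrophages.

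Xcr1 transcripts outside the dendritic cells differed between the libraries. Among barcodes with at least 2000 CPM of C1q, 104 of 1197 had an Xcr1 UMI in the antibody library (8.69%, interval 7.15 to 10.4) and 4 of 894 in the control library (0.447%, 0.122 to 1.14). In tumour barcodes, which should lack Xcr1, the shares were 1.22% in the antibody library and 0.110% in the control library, at median depths of 19061 and 11590 UMIs. In T cell barcodes they were 1.30% (10 of 771) in the antibody library and 0 of 155 in the control library, where a floor of 3 counts allows a share of up to 1.94% and the exact interval reaches 2.35%, at median depths of 2768 and 1689 UMIs. The share in C1q-rich barcodes of the antibody library lay above both, at a median depth of 4562 UMIs. Barcodes with 2 or more Xcr1 UMIs numbered 44 of 1197 there, with at most 7, and 14 of 4665 among tumour barcodes of that library, with at most 8.

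The threshold of 2 marker UMIs mattered most for the C1q-high members. Just inside it, 26 antibody members and 5 control members had exactly 2 UMIs of Xcr1 and Clec9a, and 20 of the 26 and 1 of the 5 were C1q-high. Just outside it, 89 antibody barcodes and 13 control barcodes had 1 UMI, and 64 of the 89 and 3 of the 13 were C1q-high. The C1q-low members held a median of 5 Xcr1 UMIs in the antibody library and 4 in the control library.

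The C1q-low members were a larger share of the antibody library. They made up 0.265% of its barcodes under 20% mitochondrial UMIs (32 of 12073, interval 0.181 to 0.374), against 0.115% in the control library (16 of 13864, 0.0660 to 0.187). The ratio was 2.30-fold (1.22 to 4.48). Set against the C1q macrophages of the same library, there were 2.93 per 100 in the antibody library and 1.80 per 100 in the control library, a ratio of 1.63 with an interval that reached below 1 (0.869 to 3.18). With C1q-low members limited to those with 0 C1q UMIs, 14 remained in the antibody library and 16 in the control library, and the log2 ratio of the shares was 0.0069. Tumour barcodes had a median of 68.8 CPM of C1q in the antibody library and 0 in the control library, and the part of free C1q RNA in this shift was not tested. Over all members, the shares were 0.621% and 0.130% in the antibody and control libraries, a ratio of 4.78.

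Against the C1q macrophages, the C1q-low members carried a dendritic profile in both libraries. Among 9258 genes that reached 20 counts over members and macrophages of each library, 447 were at least 2-fold higher in both libraries (4.83%) and 1592 at least 2-fold lower (17.2%). The macrophages alone could bring a gene to 20 counts, so the lower genes include some that the members' depth could not place. Cdkn2a, with 0 counts in the C1q-low members of both libraries, was called lower at -5.90 and -4.55. Against a floor of 3 counts its log2 ratio was bounded only at 0.22 in the antibody library and 2.82 in the control library. With all members counted, 203 of 9292 genes were higher (2.18%) and 686 lower (7.38%). Of the 12 genes that led the higher side, Septin3, Plet1 and Cd24a had the largest ratios. Septin3 stood at 543 CPM in the antibody C1q-low members and 1.34 CPM in the antibody macrophages, and at 369 and 0.285 CPM in the control ones. Plet1, a surface protein, stood at 942 against 2.68 CPM in the antibody library and 605 against 3.99 CPM in the control library. The others were Cbfa2t3 (a transcriptional corepressor), Napsa (an aspartic protease), Ifi205, Rnase6, Tbc1d8, Mctp1, Lrrk2, Lsp1 and Ly75, the uptake receptor DEC-205, with log2 ratios from 4.20 to 5.93 in the antibody library. Cst3, the cysteine protease inhibitor cystatin C, stood at 26274 and 21435 CPM in the antibody and control C1q-low members, against 2342 and 2500 CPM in the macrophages.

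On the lower side, all 12 leading genes had 0 counts in the C1q-low members of both libraries. They included Pf4, C3ar1, Trem2, Ch25h, Folr2, Stab1, Lair1, Zmynd15, Maf, Clec4a3 and Cd93, among them the transcription factor Maf and the scavenger receptor Stab1. Pf4, a chemokine of the platelet factor family, stood at 602 CPM in the antibody macrophages and 1608 CPM in the control macrophages. Against a floor of 3 counts over the members of a library, its log2 ratio was -5.60 or lower in the antibody library and -5.18 or lower in the control library.

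The comparison between libraries asked what differed in these cells between tumours of antibody-treated and control mice. Of 2344 genes with at least 20 counts over the C1q-low members of both libraries, 340 were at least 2-fold higher in the antibody library (14.5%) and 184 at least 2-fold lower (7.85%), and the median log2 ratio was -0.02. Over all members, whose sets differ in C1q-high cells, 1195 of 4730 genes were higher (25.3%) and 530 lower (11.2%). By the naming rule the higher side over all members was then led by Cxcl10, Serpina3g, Sdf2l1, Slc3a2, Acod1, Gbp4, Plau, Lamp1, Sdc4, Ddost, Ccl8 and Lair1, and the lower side by Ifit2, Irf7, Ifi209, Mx1, Mndal, Phf11b, Slfn1, Slfn5, Rnase6, Tlr3, Gpr171 and Usp18. In the macrophages 9.07% of 11341 genes were 2-fold higher and 4.78% lower, with a median of -0.15. Of 337 higher genes that could also be measured in macrophages, 160 were 2-fold higher there too (47.5%), against 7 of 182 lower genes (3.85%). The ratio in macrophages is therefore given beside the ratios in the members. From a sum alone, more cells with a transcript and more of it per cell cannot be told apart, so values per barcode are given where they bear on a result.

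Transcripts of the type I interferon response were lower in the C1q-low members of the antibody library. All 15 measured genes of this list had a log2 ratio below 0, 11 of them at least 2-fold lower and 0 at least 2-fold higher, against 7.85% of all genes 2-fold lower, and the list median was -1.47. In the macrophages 1 of 27 genes was 2-fold lower, against 4.78% of all genes, and the list median was -0.18. The summed list stood at 2601 CPM in the antibody C1q-low members and 9079 CPM in the control ones, against 4185 and 4732 CPM in the antibody and control macrophages. Bst2, a marker shared with plasmacytoid dendritic cells, is in this list.

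Irf7, the transcription factor that amplifies the type I interferon response, stood at 224 CPM (54 counts) in the antibody members and 1535 CPM (104 counts) in the control ones, a log2 ratio of -2.76 (-3.28 to -2.29), against -0.39 in macrophages. One control barcode gave 48 of those 104 counts. Isg15, a ubiquitin-like modifier, stood at 270 and 1402 CPM, a log2 ratio of -2.36 (-2.86 to -1.91), against -0.37 in macrophages. Ifit2, an antiviral RNA-binding protein, stood at 62.2 and 487 CPM, a log2 ratio of -2.91 (-3.96 to -2.05), against -0.69 in macrophages. Lower counts were behind Ifit3, with 1 count in the antibody members and 17 in the control ones (log2 ratio -5.10, interval -11.3 to -3.25, with -0.89 in macrophages), and Rsad2, the antiviral enzyme viperin, with 2 and 15 counts (-4.28, -7.91 to -2.63, with -0.45 in macrophages). Ifit3 and Rsad2 fell below the minimum of 20 counts and are not among the 15 measured genes. Zbp1, a sensor of nucleic acids, stood nearest to 0 in the list, at 207 and 266 CPM (-0.35, -1.16 to 0.51), with 0.65 in macrophages.

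Many promoters of interferon-stimulated genes hold an interferon-stimulated response element, which binds transcription factors of the IRF family. For Isg15, Ifit3 and Rsad2, 3 of the genes just described, the RefSeq windows that matched GAAANNGAAA are shown, because the list is defined by this response. These 3 genes were chosen after their values were seen, and Ifit3 and Rsad2 rest on few counts. The windows were taken on the mouse genome. The windows run from 250 bases before to 50 after the start on the gene's own strand, and capitals mark every match on either strand, overlapping matches joined.
Isg15: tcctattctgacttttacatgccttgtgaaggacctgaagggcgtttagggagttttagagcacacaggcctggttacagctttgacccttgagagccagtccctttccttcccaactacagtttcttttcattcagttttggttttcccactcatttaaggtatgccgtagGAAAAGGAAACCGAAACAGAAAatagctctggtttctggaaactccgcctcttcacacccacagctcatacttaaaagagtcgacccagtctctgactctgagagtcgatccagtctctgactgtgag
Ifit3: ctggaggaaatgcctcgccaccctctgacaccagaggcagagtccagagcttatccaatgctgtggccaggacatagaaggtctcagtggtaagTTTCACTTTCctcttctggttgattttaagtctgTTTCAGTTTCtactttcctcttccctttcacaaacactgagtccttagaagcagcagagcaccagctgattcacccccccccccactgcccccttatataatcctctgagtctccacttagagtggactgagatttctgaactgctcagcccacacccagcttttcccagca
Rsad2: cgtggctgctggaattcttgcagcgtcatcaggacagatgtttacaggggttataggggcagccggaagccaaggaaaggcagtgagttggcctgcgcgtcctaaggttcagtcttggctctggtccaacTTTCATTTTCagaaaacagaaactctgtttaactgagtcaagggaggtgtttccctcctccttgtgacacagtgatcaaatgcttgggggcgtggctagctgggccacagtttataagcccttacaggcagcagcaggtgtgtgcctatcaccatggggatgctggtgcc
Isg15 lies at chr4:156200769-156201068 on the minus strand, Ifit3 at chr19:34583279-34583578 on the plus strand and Rsad2 at chr12:26456403-26456702 on the minus strand, all in GRCm38.p6. Isg15 had 3 overlapping matches on the gene's strand, Ifit3 had 2 on the other strand and Rsad2 had 1 on the other strand. Over all windows of this length, 3.44% of 32851 held a match, as did at least 1 window of 3.99% of 27025 gene symbols. Of 28 symbols in the type I interferon list 21 were matched to a window, and 11 of those held the motif. In the MHC class II list 1 of 14 matched symbols held it, and in the interferon gamma list, whose median log2 ratio was 0.41, 11 of 15 did. A match is a description of these letters and was not tied to binding of any factor.

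The difference was spread over the cells rather than found in a single one. Per barcode, the list took 5.57 to 78.2 of every 10000 UMIs in the antibody C1q-low members, with a median of 19.4, and 7.13 to 272 in the control ones, with a median of 76.7. The groups overlapped: 7 of 16 control barcodes lay above the highest antibody barcode, while only 1 of 32 antibody barcodes lay above the control median. A single control barcode held 30.2% of the list's control UMIs. With each control barcode left out in turn, the list median ranged from -1.59 to -1.12, and with each antibody barcode left out it ranged from -1.67 to -1.40. Depth differed too, with medians of 6881.5 UMIs per barcode in the antibody members and 4086 in the control ones.

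**Figure D3:**
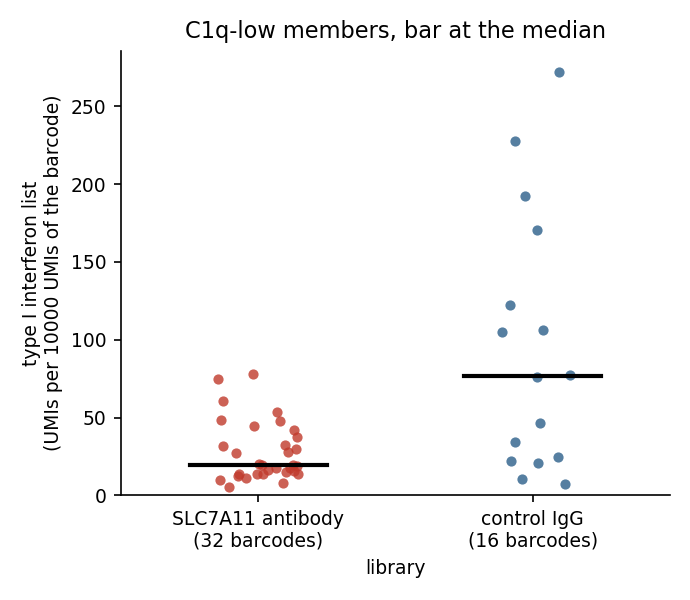
Each point is 1 C1q-low member, with the UMIs of the type I interferon list per 10000 UMIs of the barcode on the y axis, for the antibody library on the left and the control library on the right, and the bar at the median. The antibody members lie between 5.57 and 78.2 and the control members between 7.13 and 272, with medians of 19.4 and 76.7.

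By the naming rule the lower side was led by Irf7, Slfn1, Isg15, Mndal, Ifi27l2a, Slfn5, Phf11b, Ifi204, Neat1, Ms4a6c, Plac8 and Dnajc7, of which Irf7 and Isg15 belong to the list. Slfn1, Slfn5, Ifi27l2a, Mndal and Ifi204 are known as interferon-inducible but are not in it, and no test of overlap was made. Slfn1 stood at 116 CPM in the antibody members and 635 CPM in the control ones (log2 ratio -2.42, -3.19 to -1.73), against -0.05 in macrophages. Plac8, a small protein of monocytes and plasmacytoid cells, stood at 792 and 2598 CPM (-1.71, -2.02 to -1.41), against 1.02 in macrophages. Tlr3, the receptor for double-stranded RNA that cDC1 carry, stood at 137 and 325 CPM (-1.23, -2.07 to -0.40), with 0.27 in macrophages.

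MHC class II transcripts were high in the C1q-low members of both libraries, while they were higher in the antibody macrophages than in the control macrophages. In the members 10 of 13 measured genes had a log2 ratio below 0 and 3 above, most of them within 2-fold. Among the lower ones were H2-DMb1 (-0.81, -1.12 to -0.51) and Ctss (-0.84, -1.20 to -0.49). Of 13 measured genes 0 were 2-fold higher and 1, the lysosomal protease gene Lgmn with 16 and 10 counts in the antibody and control members, was 2-fold lower, against 14.5% and 7.85% of all genes, with a list median of -0.44. In the macrophages 9 of 16 were 2-fold higher, against 9.07% of all genes, with a list median of 1.16. For 12 of 13 genes the ratio in the members lay below that in macrophages, and the median of the difference was -1.65 on the log2 scale, where the median over all genes was 0.12. This difference of ratios was not tested.

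H2-Aa, the alpha chain of I-A, stood at 16881 CPM in the antibody members and 19899 CPM in the control ones (log2 ratio -0.24, -0.33 to -0.15), and at 7624 and 1512 CPM in the antibody and control macrophages (2.33). Cd74, the invariant chain, stood at 16752 and 21981 CPM in the antibody and control members (-0.39, -0.48 to -0.31), and at 9721 and 3090 CPM in the macrophages (1.65). Ciita, the master regulator of class II transcription, stood at 253 and 369 CPM in the members (-0.54, -1.24 to 0.19), and at 53.2 and 7.70 CPM in the macrophages (2.77). H2-Ab1, the beta chain of I-A, was the exception among the abundant chains, at 9629 and 5565 CPM (0.79, 0.63 to 0.95), which stayed below 2-fold and below its ratio of 3.15 in macrophages. The members thus exceeded the macrophages of their own library by a list median of 0.87 in the antibody library and 2.83 in the control library. Per barcode, class II transcripts took a median of 607 of every 10000 UMIs in the antibody members and 663 in the control ones, with ranges of 114 to 1135 and 124 to 1041 that overlapped almost whole. Over all barcodes of a library H2-Aa stood at 854 CPM in the antibody library and 92.1 CPM in the control library, and the part of free RNA in these levels was not tested.

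**Figure D4:**
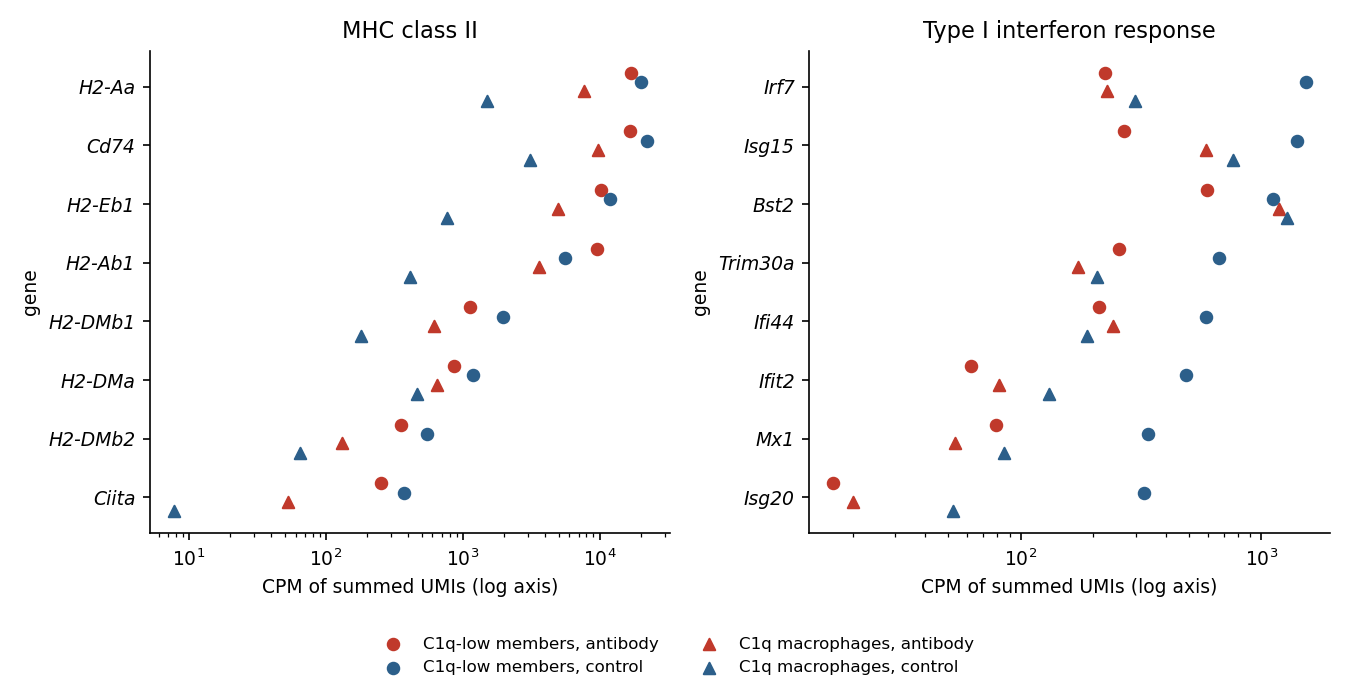
The x axis gives CPM of the summed UMIs on a log scale for 8 genes of the MHC class II list (left) and 8 of the type I interferon list (right). Circles are C1q-low members and triangles C1q macrophages, red for the antibody library and blue for the control library. Class II circles of both colours lie closer together than the triangles, as for H2-Aa at 7624 and 1512 CPM in the antibody and control macrophages. H2-DMa is the exception, with circles at 867 and 1181 CPM and triangles at 644 and 463 CPM in the antibody and control libraries. In the right panel the control circles lie to the right of the antibody circles for all 8 genes shown.

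MHC class I and peptide loading genes were higher in part. Of 19 measured genes 5 were at least 2-fold higher and 0 lower, where 14.5% of all genes were higher and 7.85% lower, with a list median of 0.15 in the members and 0.70 in the macrophages. H2-K1 stood at 2738 CPM in the antibody members and 930 CPM in the control ones (log2 ratio 1.55, 1.18 to 1.95), with 1.54 in macrophages. H2-D1 stood at 3219 and 1181 CPM (1.44, 1.11 to 1.80), with 1.86 in macrophages. Tap1, a subunit of the peptide transporter, stood at 407 and 88.6 CPM (2.16, 1.03 to 3.68), with 1.68 in macrophages, and its partner Tap2 at 266 and 251 CPM (0.08, -0.71 to 0.95), with 0.89. B2m, the light chain, stood at 2842 and 2451 CPM (0.21, -0.03 to 0.47), with 0.33 in macrophages. The immunoproteasome subunit Psmb9 stood at 2228 and 1712 CPM (0.38, 0.09 to 0.68), with 0.79 in macrophages, and Psmb10 at 236 and 472 CPM (-0.99, -1.65 to -0.33), with -0.09.

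The interferon gamma list was thinly measured in the C1q-low members. Of 9 measured genes 3 were 2-fold higher and 1 was 2-fold lower, against 14.5% and 7.85% of all genes, with a list median of 0.41. In the macrophages 20 of 25 were 2-fold higher, against 9.07% of all genes, with a median of 1.49. Irf1, an early transcription factor of this response, had 71 counts in the antibody members and 3 in the control ones (log2 ratio 2.65, 1.13 to 5.05), with 1.90 in macrophages. Cxcl9 had 62 and 2 counts (2.99, 1.21 to 6.20), with 4.51 in macrophages, and was seen in 15 of 32 antibody members and 2 of 16 control members. The list median was -0.58 when each barcode was scaled before averaging, and 2.57 over all members, where the C1q-high ones are counted in.

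Genes of dendritic cell maturation were few in both libraries. Of 9 measured genes 4 were 2-fold higher and 0 lower, against 14.5% and 7.85% of all genes, with a list median of 0.71 in the members and 0.58 in the macrophages. Ccr7, the receptor that leads mature dendritic cells to lymph nodes, had 46 counts in the antibody members and 0 in the control ones, but 38 of the 46 came from 1 barcode and 2 barcodes held them all. Fscn1, an actin-bundling protein of mature dendritic cells, had 8 and 0 counts. Cd80, a costimulatory ligand, had 37 and 4 counts and was seen in 17 of 32 and 4 of 16 barcodes (log2 ratio 1.33, -0.10 to 3.33), with -0.89 in macrophages. Cd86 stood at 432 and 561 CPM (-0.38, -0.93 to 0.20), with -0.51 in macrophages, and Cd83 at 419 and 428 CPM (-0.03, -0.64 to 0.62), with -0.19. The list median was -0.13 when members with any Hmga2 UMI were left out.

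Il12b, the shared subunit of interleukin 12 and 23, had 73 counts in the antibody members and 9 in the control ones (log2 ratio 1.17, 0.19 to 2.37), with 0.86 in macrophages. It came from 3 of 32 antibody barcodes and 1 of 16 control barcodes, so the ratio rests on 4 cells. It was 0.32 with 1 of the antibody barcodes left out, and without the 1 control barcode the control members would have 0 counts. Of 6 measured genes among T cell recruiting and stimulating cytokines 2 were 2-fold higher and 0 lower, against 14.5% and 7.85% of all genes. Cxcl10 had 17 counts in the antibody members and 0 in the control ones. Il1b, the inflammatory cytokine interleukin 1 beta, was the most abundant of this list in both, at 2332 and 3189 CPM (-0.45, -0.68 to -0.22), with -1.10 in macrophages. Cd274, which encodes PD-L1, stood at 270 and 148 CPM (0.86, -0.10 to 2.00), with 1.84 in macrophages, and Havcr2, which encodes TIM-3, at 207 and 236 CPM (-0.18, -1.02 to 0.72), with 0.21.

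Among the identity genes not used by the rule, Irf8 and Cadm1 were 2-fold higher in the antibody members. The ratio was 1.42 for Irf8 (1.11 to 1.74) and 1.49 for Cadm1 (0.68 to 2.45), close to the ratios in macrophages of 1.28 and 1.29. Of 18 measured genes of the identity list 2 were 2-fold higher and 1, Tlr3, was 2-fold lower, against 14.5% and 7.85% of all genes, with a median of -0.03. Naaa, a lysosomal amidase, stood at 2817 and 2126 CPM (0.41, 0.14 to 0.68), with 1.18 in macrophages, and Id2, a transcriptional regulator of the lineage, at 1344 and 1594 CPM (-0.25, -0.56 to 0.08), with 0.43.

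**Figure D5:**
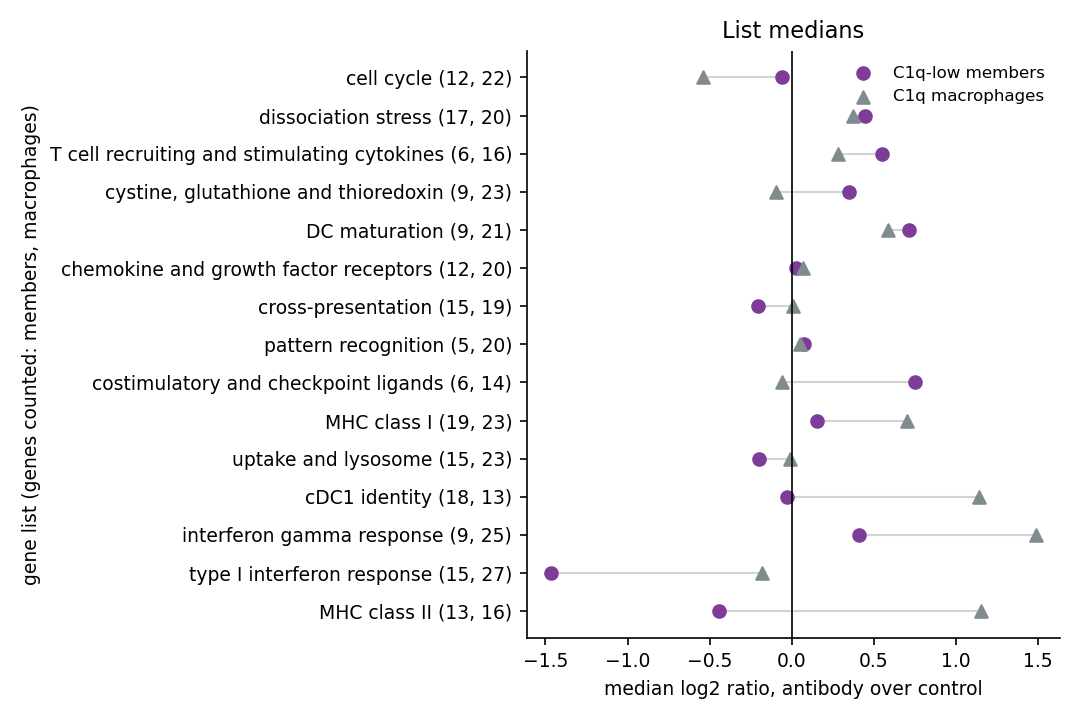
Each row is a gene list, with the median log2 ratio of the antibody over the control library on the x axis for C1q-low members (circles) and C1q macrophages (triangles), and the numbers of genes behind each in brackets. The widest gaps are those of the MHC class II list (-0.44 in members, 1.16 in macrophages) and the type I interferon list (-1.47 and -0.18).

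The genes that led the higher side were by rule at least 2-fold beyond their ratio in macrophages. Their direction was shared over all barcodes of the libraries, with log2 ratios from 1.40 for Manf to 5.27 for Junb. By the naming rule they were H2ax, Slc3a2, Junb, Sdf2l1, Dnajb1, Ptges3, Mpc2, Nfkbia, Ostf1, Bsg, Manf and Mkrn1. Junb, a subunit of the AP-1 transcription factor, had 463 counts in the antibody members and 1 in the control ones (log2 ratio 6.74, 4.54 to 12.3), with 4.87 in macrophages. Slc3a2, the heavy chain that pairs with SLC7A11, had 87 and 0 counts, a log2 ratio of at least 3.03 against a floor of 3 counts over the control members, with 1.95 in macrophages. Slc7a11 itself had 0 counts in the C1q-low members of both libraries. Dnajb1, a heat shock cochaperone, had 62 and 0 counts, but 52 of them came from 1 barcode, with a log2 ratio of 1.78 in macrophages.

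The C1q-high members of the antibody library resembled its C1q macrophages with some genes shifted. They were compared only with macrophages of the same library, which by definition held no Xcr1 UMI, and this comparison was added after the split had been seen. Of 10384 genes 313 were at least 2-fold higher (3.01%) and 1542 at least 2-fold lower (14.8%), and the C1q-high members were deeper, with medians of 9108 UMIs against 4078.5 in the macrophages. Here too the macrophages alone could bring a gene to the count minimum. Cd4, with 0 counts in the C1q-high members and 24 in the macrophages, was called lower with a floor bound of 0.63. The macrophages, unlike the members, had no limit on CD3 or Siglech transcripts, and Cd3g was seen in 52 antibody macrophages. The part of this unequal filter in the lower T cell genes was not tested. The higher side was led by Negr1, Siglece, Fpr2, Cyria, Fpr1, Dnase1l3, Clec4b1, Il27, BC064078, Gpr18, Fnbp1l and Amd1. Siglece, an inhibitory lectin, stood at 119 CPM in the C1q-high members and 32.0 CPM in the macrophages (log2 ratio 1.89, 1.41 to 2.36). Dnase1l3, a secreted nuclease, stood at 207 and 65.4 CPM (1.66, 1.30 to 2.00).

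On the lower side, Mmp12, macrophage elastase, stood at 4.75 CPM in the C1q-high members and 702 CPM in the macrophages (-7.16, -10.3 to -5.35). Arg1, the arginine-degrading enzyme arginase, stood at 19.0 and 732 CPM (-5.26, -6.48 to -4.29). Emb, Ccl6, Pdpn, Ccl9, Hal, Fabp5, Pmp22, Rsad2, Hilpda and Mt2 followed. Cxcl9 stood at 3499 CPM in the C1q-high members and 1436 CPM in the macrophages (1.28, 1.20 to 1.37). The macrophage genes Csf1r (169 and 176 CPM) and Adgre1, which encodes F4/80 (496 and 252 CPM, log2 ratio 0.97), were present in both. Apoe was present in both but lower in the C1q-high members, at 1901 and 4023 CPM (-1.08, -1.18 to -0.98).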

How the data were processed

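Per the labels' protocols, cells from digested tumours went through the 10x Genomics Chromium 3′ chemistry. The deposited tables hold the authors' UMI counts per gene and barcode, and Cell Ranger 7.2.0, Seurat and mm10 are named in the submitters' processing notes. Nothing was filtered beyond the members' rule, no free RNA or doublet correction was made, and cells are not replicates.

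Counts were summed over the members of a library and given as CPM of the sum. Log2 ratios used a prior count of 0.5 scaled to the totals and genes with at least 20 counts; called means 2-fold. C1q macrophages had at least 2000 CPM of C1qa, C1qb and C1qc, 0 Xcr1 and the same mitochondrial and Hmga2 limits (1092 antibody and 890 control barcodes). They had no limit on Cd3d, Cd3e, Cd3g or Siglech. Intervals are exact Clopper-Pearson for shares and conditional binomial for ratios. A ratio against 0 counts uses a floor of 3 counts in the set's sum. The ratios and intervals were tested on simulated data.

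The members and the 15 gene lists and 15 marker lists were chosen with earlier results of these data known. Of 408 symbols 5 were not in the tables and 3 of these were matched by synonym. Named genes are those of the lists, plus the 12 highest and 12 lowest over macrophages (same sign in both libraries, 100 counts, detected in 20% of the higher set) and between libraries (50 counts, detected in 20% of a set, at least 2-fold beyond the ratio in macrophages), without mitochondrial, ribosomal, haemoglobin, sex-linked and antigen receptor genes or unnamed gene models. The rule was run on C1q-low members and on all members. Some genes that the lists or the rule name are not reported here. Actb and Cox5a were added as examples after their values were seen. Results for C1q-low and C1q-high members, each barcode left out in turn, and the type I interferon median among the main results were added after the data were seen. The alternatives were stricter mitochondrial (10%) and marker (3 UMIs) limits, Hmga2 at 0, C1q limits, median-of-ratios scaling, thinning to 1000 UMIs, count minimums of 0 and 100, totals without mitochondrial, ribosomal and haemoglobin genes, leaving out the deepest member of each library, and per-cell means. The promoter windows are from RefSeq, GRCm38.p6. Analyses ran in Python 3.11.15 with pandas 2.3.3, numpy 2.4.6, matplotlib 3.10.9 and scipy 1.17.1.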

Additional observations from a re-analysis of the deposited data

How the results depend on the processing

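Of 218 alternative values for 22 results, 181 stayed within the set limits, 37 moved and 0 were marked as reversed. These marks did not count every change of sign. In C1q-low members the maturation median went from 0.71 to -0.13 and the interferon gamma median from 0.41 to -0.58, both marked as moved. Over all members the MHC class I median went from 0.18 to -0.02 without the deepest members, which stayed within the limits. For all members, leaving out the C1q-high ones gave 340 genes 2-fold higher and 184 lower between libraries, against 1195 and 530, 447 higher and 1592 lower than macrophages, against 203 and 686, an interferon gamma median of 0.41 and a log2 share ratio of 1.20. Median-of-ratios scaling gave 223 lower genes (111 in C1q-low members). Thinning to 1000 UMIs gave 152 higher and 62 lower genes, 128 higher than macrophages and a type I interferon median of -0.53, and in C1q-low members 38, 25, 265 and 1054. It left out 1 antibody and 2 control C1q-low members. With a count minimum of 0 the 4 counts were 6507, 2012, 429 and 4455 for all members and 4584, 2041, 712 and 6445 for C1q-low ones, and with 100 they were 234, 76, 70 and 219, and 38, 13, 189 and 715. In C1q-low members, C1q at 0 UMIs gave 143 higher and 101 lower genes and a log2 share ratio of 0.0069, Hmga2 at 0 a maturation median of -0.13, and per-cell means an interferon gamma median of -0.58. Their class II median ranged from -0.49 to -0.22 over 11 alternatives and their type I interferon median from -1.51 to -0.99 over 9. Thinning to 1000 UMIs and the count minimum of 100 gave no type I interferon median for C1q-low members. That range therefore holds no check at equal depth. The causes of these shifts were not tested. No paired analysis was possible because each group has 1 library. Depth limits genes with few counts in 67741 UMIs of the control C1q-low members.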

Other observations

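Fth1, the ferritin heavy chain, stood at 3078 CPM in the antibody C1q-low members and 162 CPM in the control ones (log2 ratio 4.22, 3.40 to 5.25), and at 20375 and 1276 CPM in the antibody and control macrophages. Ftl1, the light chain, stood at 2498 and 2583 CPM (-0.05, -0.29 to 0.20), with -0.48 in macrophages. Txn1, thioredoxin, stood at 2166 and 1698 CPM (0.35, 0.06 to 0.66), with 0.56 in macrophages, and Prdx1, a peroxiredoxin, at 1170 and 1668 CPM (-0.51, -0.83 to -0.18), with -0.10. Over the 9 measured genes of the cystine, glutathione and thioredoxin list, 2 were 2-fold higher and 0 lower, against 14.5% and 7.85% of all genes, with a median of 0.35 in the members and -0.10 in macrophages.

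Cycling transcripts were found in a minority of C1q-low members. Top2a, a DNA topoisomerase of dividing cells, had UMIs in 6 of 32 antibody barcodes and 4 of 16 control barcodes, at 149 and 118 CPM (0.33, -0.79 to 1.66). Mki67 had UMIs in 4 of 32 and 1 of 16. Ube2c, which acts in mitotic exit, stood at 407 and 635 CPM (-0.64, -1.17 to -0.09). Among growth factor receptors, Kit stood at 141 and 148 CPM (-0.06, -1.12 to 1.12), against 1.91 and 0.570 CPM in the antibody and control macrophages. The uptake receptors Ly75, at 203 and 133 CPM (0.60, -0.43 to 1.83), and Timd4, at 141 and 162 CPM (-0.20, -1.22 to 0.93), were held in both libraries. Uptake receptors were not held as a group: in the antibody and control C1q-low members Axl had 4 and 1 counts, Clec4n 6 and 1, and Clec4a2 1 and 2.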
